A study of Mus musculus with 12 samples.

Results

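Whether loss of Notch3 alters small brain vessels alike in the cerebrum and in the cerebellum was examined with all 12 arrays of the series, which came from 6 mice. Each mouse gave vessel fragments from both regions, and each region was hybridized on its own array. Genotype (control or Notch3 knockout) and region thus formed 4 groups of 3 arrays each. The mice were of the C57BL/6 strain and 2 months old, and the controls were littermates labelled as wild type, with no further allele or treatment named for either genotype. Where the deletion lies in Notch3, how the line was made and how the fragments were isolated were not stated in the labels. The region dependence of the knockout effect, called the interaction below, is the knockout minus control difference in cerebellar vessels minus the same difference in cerebral vessels. It was computed for 11716 genes on the log2 scale, on which 1 unit is a 2-fold difference, and a negative value means a lower knockout effect in cerebellar than in cerebral vessels. The regions of a mouse were linked through genotype and replicate number, an identity that the labels do not state in words.

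Notch3 is a cell-surface receptor of mural cells, the smooth muscle cells and pericytes that wrap vessels. When a Jagged or Delta ligand on a neighbouring cell binds it, its intracellular part is cut free, enters the nucleus with the DNA-binding protein Rbpj and switches on genes of the Hes and Hey families. In arteries this signal keeps smooth muscle cells mature and contractile, and human NOTCH3 mutations cause the small-vessel disease CADASIL.

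Vessel transcripts were abundant on every array. The 29 endothelial markers measured had mean log2 levels between 13.18 and 13.36 on every array, with group ranges of 13.28 to 13.29 in control cerebral, 13.18 to 13.22 in control cerebellar, 13.32 to 13.33 in knockout cerebral and 13.23 to 13.36 in knockout cerebellar vessels. Claudin 5 (Cldn5), a tight junction protein, lay between 14.75 and 15.03, and smooth muscle actin (Acta2) between 14.28 and 14.89. The preparations also held other cells. The transthyretin gene Ttr of the choroid plexus read 16.07 to 16.29, and the myelin gene Mbp read 12.01 to 13.98. The median of all values was 3.27, and levels at or under it are treated as indistinguishable from background. In such bulk samples, fewer cells of a type and less RNA per cell cannot be told apart.

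Notch3 itself checked the labels. Its probe set with the highest mean read 11.32, 11.61 and 10.84 in control cerebral vessels and 11.73, 12.02 and 11.78 in control cerebellar vessels. In knockout mice it read 2.48, 2.48 and 3.15 in cerebral and 3.15, 3.58 and 2.48 in cerebellar vessels. No knockout value came near a control value, and 5 of the 6 lay at or under the background level. The interaction was -0.22 (95% interval -1.26 to 0.82), a value that depends on background readings and cannot show whether the loss was equal in both regions. A second Notch3 probe set gave an interaction of -0.99 (unadjusted p = 0.034 and adjusted p = 0.508 over all probe sets in limma), with group means of 7.28 and 8.13 in control cerebral and cerebellar vessels and 2.95 and 2.82 in the knockout groups. Where the probes lie relative to the deletion is not known here.

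Across the genome, few genes had a region-dependent knockout effect that passed the test. In limma's moderated test of 3 knockout against 3 control within-mouse differences (cerebellar minus cerebral), 4 of 11716 genes were called, that is, had a Benjamini-Hochberg adjusted p under 0.05. All 4 (Dpt, Ebf2, Glrp1 and Slc16a7) had negative interactions, and called negative genes made up 0.0341% of genes tested, with 0 called in the positive direction. Dpt and Ebf2 passed the filter only through the control cerebellar arrays, so they had to differ between groups. At an unadjusted p under 0.05 there were 1214 genes (10.4%), of which 607 were negative (5.18%) and 607 positive (5.18%). From all p-values, limma's estimate of the share of genes with no interaction was 88.9%. The 95% interval of the interaction lay within 1 log2 unit of 0 for 11048 genes (94.3%), while 79 genes had an interaction larger than 1 in size. The 3 knockout within-mouse differences all lay above or all below the 3 control ones for 1851 genes (15.8%). The number of arrays limits the precision, and the median standard error of the interaction was 0.107.

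The calls were sensitive to the model. With the replicate number as a block across genotypes, 0 genes were called, and Dpt, Ebf2, Glrp1 and Slc16a7 each had an adjusted p of 0.064 in limma with 11.0% of all genes at an unadjusted p under 0.05. Leaving out control mouse 3 or any 1 of the 3 knockout mice also left 0 calls (over all single mice left out, 7.18% to 10.6% of genes had an unadjusted p under 0.05), leaving out control mouse 1 left 2, and leaving out control mouse 2 left 3. Of the 19 alternatives, the 4 genes were tested under 18, since none of them passed the filter at the 75th percentile of all values, and they kept the sign of their interaction in all 18. In limma, Dpt was called in 11 of these, Ebf2 in 8, Glrp1 in 7 and Slc16a7 in 5.

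**Figure D1:**
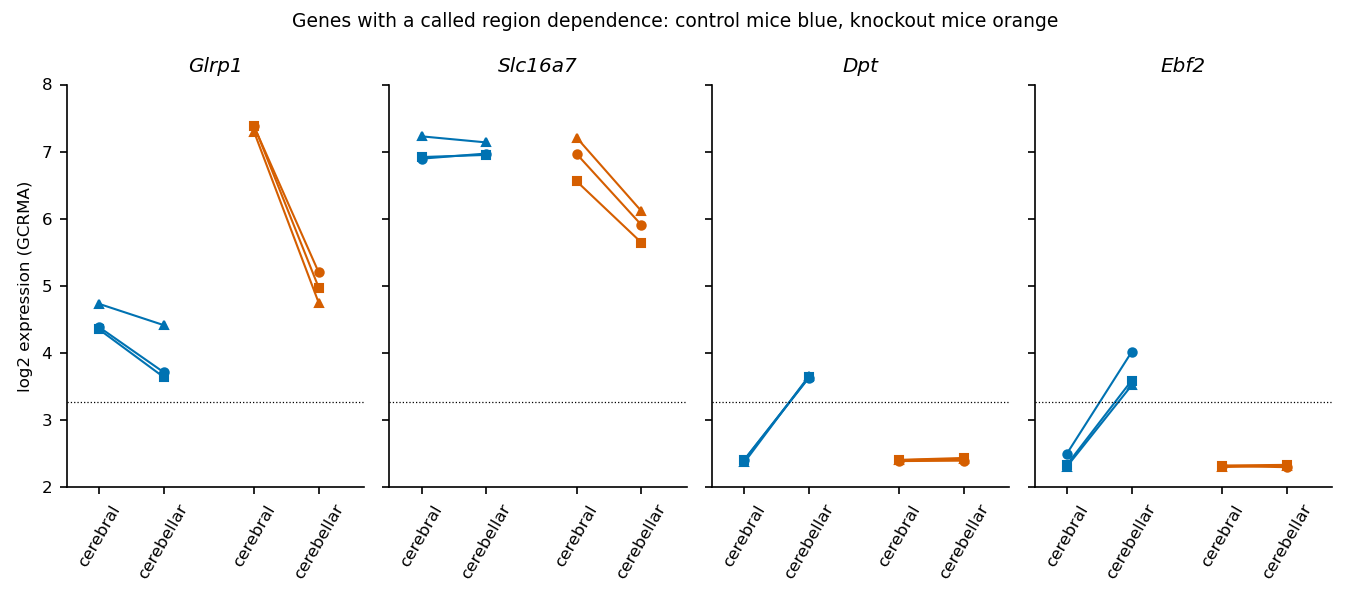
Log2 expression (vertical axis) in cerebral and cerebellar vessels for the 4 genes with a called interaction; each line joins the regions of 1 mouse, control in blue and knockout in orange, and the dotted line is the median of all values, 3.27. Glrp1 and Slc16a7 lie above that line on every array, whereas Dpt and Ebf2 rise above it only in control cerebellar vessels.

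Glrp1, the glutamine repeat protein 1 gene, had the largest interaction of the 4. It read 4.39, 4.35 and 4.73 in control cerebral and 3.72, 3.64 and 4.42 in control cerebellar vessels, against 7.38, 7.39 and 7.29 in knockout cerebral and 5.20, 4.98 and 4.75 in knockout cerebellar vessels. Knockout values exceeded control values in both regions without overlap, but by far more in the cerebrum. The knockout effect was 2.86 in cerebral and 1.05 in cerebellar vessels, giving an interaction of -1.81 (95% interval -2.15 to -1.47, adjusted p = 0.023 in limma).

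Slc16a7 encodes monocarboxylate transporter 2, which carries lactate and ketone bodies across cell membranes. Its levels were 6.90, 6.92 and 7.23 in control cerebral, 6.97, 6.95 and 7.14 in control cerebellar and 6.96, 6.56 and 7.21 in knockout cerebral vessels. In knockout cerebellar vessels they were 5.91, 5.65 and 6.11. The first 3 groups overlapped, and the knockout cerebellar group lay below all of them. The knockout effect was -0.10 in cerebral and -1.13 in cerebellar vessels, and the interaction was -1.03 (95% interval -1.23 to -0.82, adjusted p = 0.028 in limma). Slc16a7 was the gene of the 4 whose call was held by the fewest alternatives: without the link between the regions of a mouse its adjusted p was 0.849 in limma.

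Dpt encodes dermatopontin, a protein of the extracellular matrix, and Ebf2 a transcription factor of the early B cell factor family. Dpt read 3.63, 3.64 and 3.66 in control cerebellar vessels and between 2.37 and 2.44 on the other 9 arrays, and its interaction was -1.23 (95% interval -1.39 to -1.06, adjusted p = 0.00667 in limma). Ebf2 read 4.02, 3.59 and 3.52 in control cerebellar vessels and between 2.30 and 2.50 elsewhere, with an interaction of -1.32 (adjusted p = 0.023 in limma). Both genes entered the test only through the 3 control cerebellar arrays, the only ones over 3.27, so they had to differ between groups and their calls carry no support of their own. With values under 3.27 raised to it, the interactions shrank to -0.38 for Dpt and -0.44 for Ebf2, and limma's adjusted p rose to 0.260 and 0.366. Ebf2's other 2 probe sets stayed at background on all arrays. Zfpm2, a cofactor of GATA factors, had the same pattern, at 3.44, 3.67 and 3.65 in control cerebellar vessels and 2.78 to 2.83 elsewhere, and was not called (interaction -0.74, -0.32 with raised values).

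The genes next in order of p were not called and are given as values. Among those with positive interactions, Gabra6, a GABA receptor subunit typical of cerebellar granule cells, read 3.81, 3.82 and 3.79 in control cerebral and 3.88, 3.82 and 3.81 in knockout cerebral vessels, but 4.88, 5.38 and 4.93 in control and 6.62, 6.49 and 6.38 in knockout cerebellar vessels. The cerebellar groups did not overlap and the cerebral groups did, and the interaction was 1.40 (95% interval 1.07 to 1.74, adjusted p = 0.062 in limma). Dmp1, the dentin matrix protein gene, read 7.50, 8.0 and 7.84 in control cerebral and 5.47, 4.83 and 5.6 in knockout cerebral vessels, against 8.08, 8.07 and 8.25 in control and 7.85, 8.12 and 7.99 in knockout cerebellar vessels. Its knockout effect of -2.48 was thus seen in the cerebrum, with -0.15 in the cerebellum, and the interaction of 2.33 (adjusted p = 0.104 in limma) was matched by 2.6 on a second probe set. Spon1, which encodes the matrix protein F-spondin, gave effects of -1.35 in cerebral and -0.18 in cerebellar vessels (interaction 1.17). Agtr1a, a receptor for the constrictor angiotensin II, gave -0.64 and 0.14 (interaction 0.78), and Egr3, an immediate early transcription factor, gave -1.36 and -0.47 (interaction 0.88).

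Pvalb, a calcium-binding protein of Purkinje cells and interneurons, read 2.24 to 2.50 in all 6 cerebral samples, 3.22, 2.62 and 3.43 in control cerebellar and 4.69, 4.62 and 5.53 in knockout cerebellar vessels (interaction 1.94, not called). Syce2 (1.02), Rarres2 (0.58), Tbx4 (1.04), Casq2 (0.75), Adamtsl2 (0.67) and Cldn9 (1.07) completed the positive group. Syce2, for example, gave effects of -0.71 in cerebral and 0.31 in cerebellar vessels, Cldn9 -0.91 and 0.16, and Tbx4 -0.06 and 0.97. On the negative side stood H2-DMa (-0.83), a chaperone that loads peptides onto class II molecules, Il7r (-1.21), a cytokine receptor, Cd1d1 (-0.81), a lipid antigen-presenting molecule, Srpk3 (-0.57), Cyp27a1 (-0.91), a sterol hydroxylase, Lrrc3 (-1.19) and Rhoh (-1.08). Il7r, for example, read 7.96, 8.12 and 7.34 in control cerebral and 8.80, 7.89 and 8.46 in knockout cerebral vessels, which overlapped, and 7.69, 8.0 and 7.22 against 7.17, 6.87 and 6.97 in cerebellar vessels, which did not.

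Genes that responded to Notch3 loss were next chosen on the mean of both regions of each mouse, a measure that leaves the within-mouse difference free. In limma, 120 genes were higher (1.02%) and 352 lower (3%) in knockout mice. This count of 472 fell to 289 without control mouse 1, 274 without control mouse 2, 278 without knockout mouse 1 and 237 without knockout mouse 3. Of the 472, only Dpt, Ebf2 and Glrp1 had a called interaction, and Dpt and Ebf2 had to differ, as given above. In limma, 98 of the 472 (20.8%) had an unadjusted interaction p under 0.05 against 10.4% of all genes. The 95% interval lay within 1 log2 unit of 0 for 399 (84.5%) against 94.3%. Of all genes, 43.8% had a negative interaction, and 5.18% had an unadjusted p under 0.05 in each direction. The 352 lower genes had median effects of -0.79 in cerebral and -0.77 in cerebellar vessels, with 177 positive and 175 negative interactions. The 120 higher genes had medians of 0.71 and 0.60, with 69 negative interactions, of which 30 had an unadjusted p under 0.05, and 51 positive ones, of which 8 did. Among the 35 genes higher by more than 2-fold, 24 had a negative interaction and 17 of these an unadjusted p under 0.05, and the medians were 1.79 and 1.37. Among the 127 genes lower by more than 2-fold, 68 were negative and 59 positive.

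**Figure D2:**
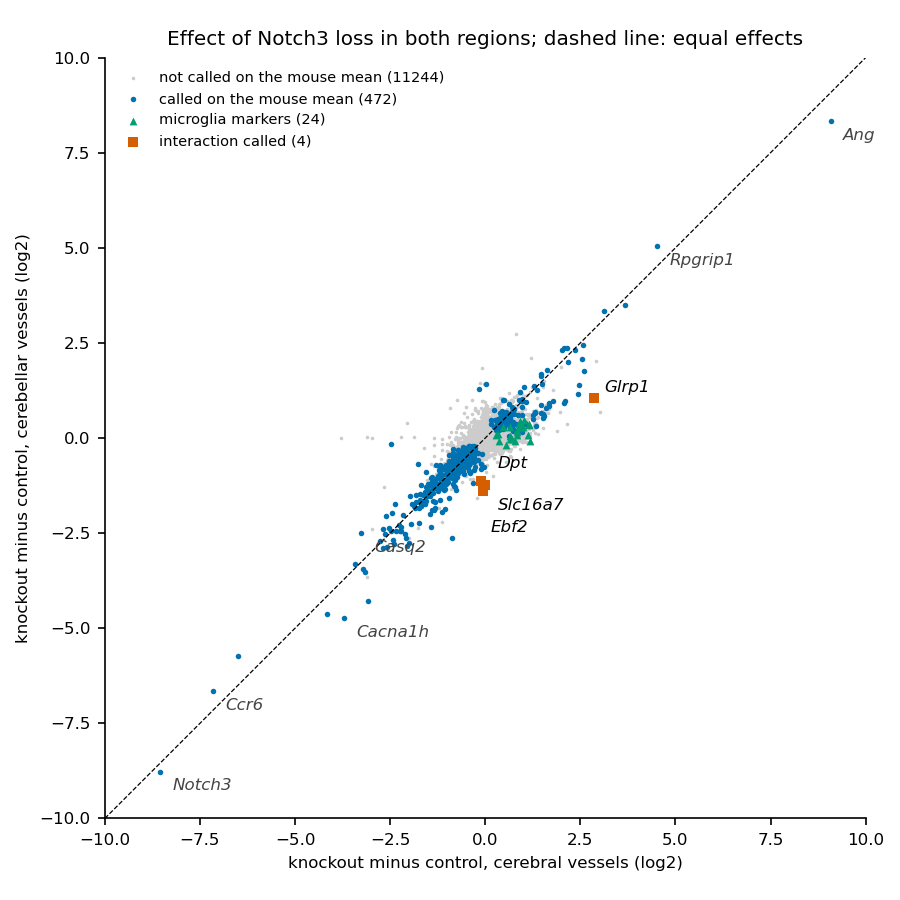
Knockout minus control difference (log2) in cerebral vessels (horizontal) and cerebellar vessels (vertical) for 11716 genes; blue, the 472 genes called on the mouse mean; orange squares, the 4 genes with a called interaction; green triangles, 24 microglia markers; the dashed line marks equal effects. Most blue points lie close to the line, and the microglia markers lie below it.

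The genes most raised on the mouse mean are a choice that favours increases in both regions; Liph, with effects of 3.02 in cerebral and 0.67 in cerebellar vessels, was not called on that mean. Angiogenin (Ang), a secreted ribonuclease, read 2.53 to 3.15 in control cerebral and 2.54 to 3.02 in control cerebellar vessels on the probe set that stands for the gene, at or under background, against 12.02, 11.54 and 11.88 in knockout cerebral and 10.99, 11.12 and 11.04 in knockout cerebellar vessels. Against the background level, Ang was higher on this probe set by at least 8.54 log2 units in cerebral and at least 7.78 in cerebellar vessels, and the interaction on the values as measured was -0.74 (95% interval -1.42 to -0.05), which was not called. Another Ang probe set read 4.73 to 4.91 in control cerebral and 4.24 to 4.69 in control cerebellar vessels, above background, and gave smaller effects of 3.75 and 3.23 with an interaction of -0.52. Rpgrip1, a protein of the photoreceptor cilium, had effects of 4.51 and 5.05, and Eme2, which encodes part of an endonuclease that cuts branched DNA, 3.67 and 3.49. Control values of Lrmda and of the clathrin adaptor subunit Ap1s3 were at background, and knockout values were higher by at least 2.27 and 2.02 for Lrmda and at least 1.94 and 1.90 for Ap1s3. Fez1, Hddc3, Zfp994 and the peptide-amidating enzyme Pam had effects between 2.0 and 2.37 in both regions and interactions between -0.19 and 0.29. The heme-binding protein gene Hebp1 rose by 2.55 in cerebral and 2.09 in cerebellar vessels, with an interval of the interaction from -0.65 to -0.29. H2-DMa read 5.12, 5.20 and 5.66 in control cerebral, 5.22, 5.21 and 5.71 in control cerebellar, 7.90, 7.54 and 8.33 in knockout cerebral and 7.03, 6.90 and 7.52 in knockout cerebellar vessels. Its interaction of -0.83 (95% interval -1.04 to -0.62, adjusted p = 0.074 in limma) lay wholly below 0 but missed the call.

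Genes named here that lie within 20 Mb of Notch3 include Cldn9, H2-DMa, Eme2, Zfp994, Ephx3, Cacna1h, Slc22a2 and Trem2, and other named genes may lie there too. Of the 380 tested genes in that window other than Notch3, these included, 43 (11.3%) had an unadjusted interaction p under 0.05 against 10.4% of all genes, and 0 were called in limma.

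The genes most lowered on the mouse mean were chosen in the same way. Ccr6, a chemokine receptor, read 8.90 to 9.92 in control vessels and at most 2.66 in every knockout array, a decrease of at least 6.34 log2 units in cerebral and at least 5.72 in cerebellar vessels, with an interaction of 0.52 (95% interval 0.14 to 0.90). The metalloprotease gene Adamdec1 read 9.10, 7.65 and 7.97 in control cerebral and 8.78, 6.76 and 6.90 in control cerebellar vessels, and at most 1.76 in knockout vessels. All knockout values of both genes lay at background, so each interaction is set by the control level of each region. Control Ccr6 read 9.92, 9.45 and 9.47 in cerebral and 8.99, 8.90 and 9.07 in cerebellar vessels, without overlap. The epoxide hydrolase Ephx3 (-4.17 cerebral, -4.63 cerebellar), the complement protease C1s1 (-3.42, -3.30), Susd5 (-3.21, -3.45), the orphan receptor Gpr20 (-2.69, -2.88), and sarcalumenin (Srl; -2.59, -2.86), a calcium-store protein, fell in both regions. The cation transporter Slc22a2 was at background in knockout vessels, lower by at least 2.33 in cerebral and at least 2.3 in cerebellar vessels. Cyp2e1, a cytochrome P450, fell by 3.15 and 3.53, but its interval was wide (-2.09 to 1.32), because control mouse 1 read 5.02 in cerebral and 7.39 in cerebellar vessels.

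The point values of Casq2, Cacna1h and Synpo2l, genes of muscle cells, differed more between regions. Casq2, the calsequestrin that stores calcium in the sarcoplasmic reticulum, read 10.57, 10.69 and 10.65 in control cerebral and 11.37, 11.55 and 11.40 in control cerebellar vessels, and 7.68, 7.53 and 6.93 against 8.95, 9.21 and 8.64 in knockout vessels. It fell by 3.26 in cerebral and by 2.51 in cerebellar vessels (interaction 0.75, 95% interval 0.44 to 1.06, not called). Cacna1h, a T-type calcium channel subunit, read 6.11, 6.26 and 6.14 in control cerebral and 7.52, 7.93 and 7.53 in control cerebellar vessels, but 2.45 to 3.17 in all knockout arrays. The control regions did not overlap, whereas knockout values were at background in both regions, so that the interaction was -1.02 (95% interval -1.47 to -0.57, not called). With values raised to 3.27 it was -1.49 and was called in limma (adjusted p = 0.019). Raising makes all knockout values equal and removes their spread, so the -1.49 is the control region difference of 1.49 alone. That call thus carries no support for a region-dependent knockout effect. Synpo2l, an actin-associated protein, behaved likewise, at 5.29, 5.84 and 4.94 in control cerebral, 6.67, 6.43 and 6.96 in control cerebellar and at most 2.57 in knockout vessels (interaction -1.20).

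**Figure D3:**
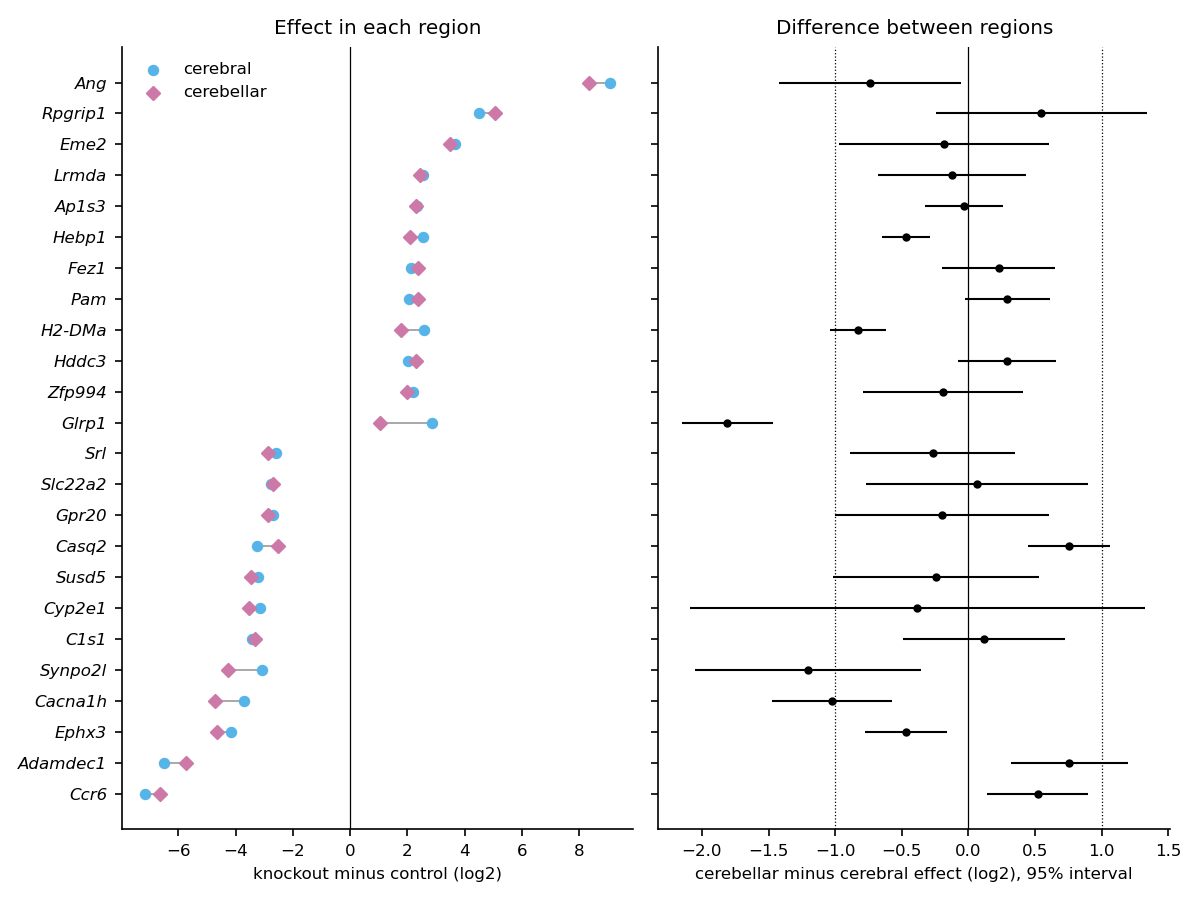
Left, knockout minus control difference (log2) in cerebral (blue circles) and cerebellar (pink diamonds) vessels for the 12 genes most raised and the 12 most lowered on the mouse mean; right, the difference of these effects, cerebellar minus cerebral, with its 95% interval from limma, and dotted lines at 1 log2 unit either side of 0. Glrp1 lies below -1 with its whole interval, and most of the other intervals include 0.

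Mural cell genes fell in both regions, with similar medians. Of 35 contractile and cytoskeletal genes of smooth muscle, 23 were called lower on the mouse mean and 0 higher, against 3% and 1.02% of all genes; the median effects were -0.86 in cerebral and -0.79 in cerebellar vessels, with a median interaction of 0.01 against 0.02 over all genes. The smooth muscle myosin Myh11 read 12.24, 12.64 and 12.40 in control cerebral, 12.60, 13.02 and 13.01 in control cerebellar, 10.71, 10.73 and 10.76 in knockout cerebral and 11.16, 11.33 and 10.80 in knockout cerebellar vessels, so that genotypes did not overlap in either region. Its interaction was -0.08 (95% interval -0.46 to 0.29). For Acta2 the interaction was 0.01 (95% interval -0.19 to 0.20), with effects of -0.39 in both regions. Of the 35 intervals, 30 lay within 1 log2 unit of 0, against 94.3% of all genes, and Synpo2l was the member with an unadjusted p under 0.05. Several members of this list, Susd5 among the genes above, may have been linked to Notch3 loss in earlier work on such vessels, so their direction is not independent evidence.

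Calcium store and ion channel genes of smooth muscle gave medians of -0.76 and -0.83 over 22 genes. On the mouse mean 10 were called lower, against 3% of all genes. Casq2 belongs to this list and may likewise rest on earlier work on such vessels. The large-conductance potassium channel Kcnma1 read 6.96, 7.45 and 6.99 in control cerebral and 6.58, 6.81 and 7.09 in control cerebellar vessels, and 5.37, 5.04 and 4.94 against 3.99, 4.15 and 4.06 in knockout vessels. The control regions overlapped and the knockout regions did not (interaction -0.74, unadjusted p = 0.013 in limma, not called). Ano1, a calcium-activated chloride channel, had effects of -1.50 and -1.20, and phospholamban (Pln), which restrains the calcium pump, -2.23 and -2.33. Of 20 vasoactive receptor and relaxation genes, 7 were called lower on the mouse mean, against 3% of all genes. Their median was -0.45 in cerebral and -0.26 in cerebellar vessels. The serotonin receptor Htr1b had effects of -2.63 and -2.53, the guanylate cyclase subunit Gucy1a1 -1.23 and -1.0 and the nucleotide receptor P2ry6 0.84 and -0.06.

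Pericyte markers had median effects of -0.62 in cerebral and -0.53 in cerebellar vessels. On the mouse mean 12 of 24 were called lower, against 3% of all genes. These 12 include the targeted Notch3, whose call was fixed by the design and which also enters the medians. Of these markers, 17 had a positive interaction, and 6 did so at an unadjusted p under 0.05 (5.18% of all genes did), none of them called. Rarres2, which encodes the chemoattractant chemerin, read 9.68, 9.85 and 9.78 in control cerebral and 10.21, 10.20 and 10.08 in control cerebellar vessels, and 8.34, 8.41 and 8.66 against 9.21, 9.49 and 9.63 in knockout vessels. It fell in both regions without overlap, by 1.30 and 0.72. Rarres2 is also listed among the choroid plexus and ependymal markers, and which cells gave its values was not tested. Art3 fell by 1.43 and 1.06, the transporter Atp13a5 by 1.20 and 0.88, the proteoglycan NG2 (Cspg4) by 0.91 and 0.66 and the aminopeptidase Enpep by 1.35 and 1.13. For Pdgfrb, the growth factor receptor of mural cells, the effects were -0.48 and -0.26.

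The Notch pathway gave no called interaction. Among 24 receptors, ligands and modifiers, 2 (the targeted Notch3 and Dtx3) were called lower on the mouse mean, against 3% of all genes. At an unadjusted p under 0.05 in limma, 1 had a positive interaction and 2 a negative one, against 5.18% of all genes in each direction. The other receptors gave interactions of 0.12 for Notch1, -0.38 for Notch2 and 0.33 for Notch4, the endothelial receptor (unadjusted p under 0.05). The ligands Jag1 and Dll4 had effects of -0.35 and -0.48, and -1.05 and -0.68, in cerebral and cerebellar vessels. Of 18 target genes, 7 were called lower on the mouse mean, against 3% of all genes. The transcription factor genes Hey2 (-1.13, -1.22), Heyl (-0.74, -0.75) and Tbx2 (-1.94, -1.74) fell in both regions. Nrip2 fell by 2.34 and 2.44, Grip2 by 2.39 and 2.79 and Nrarp, a feedback inhibitor of Notch signalling, by 1.07 and 1.36. Grip2 and Nrip2 entered the list from knowledge that may rest on these very vessels.

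**Figure D4:**
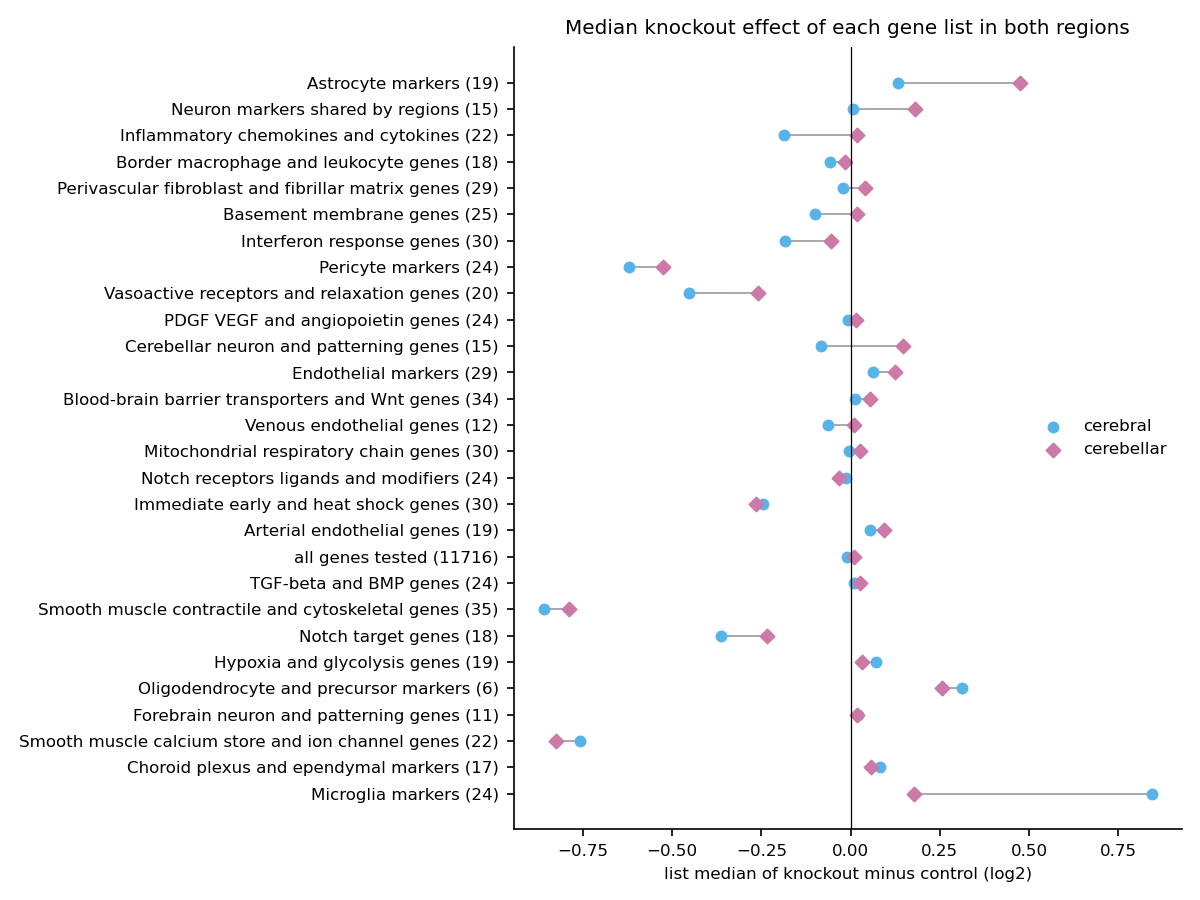
Median knockout minus control difference (log2) of each gene list in cerebral (blue circles) and cerebellar (pink diamonds) vessels, with the number of genes tested in parentheses; lists are ordered by their median interaction and lists of fewer than 6 genes are left out. The smooth muscle lists lie far to the left in both regions, and the widest gap is that of the microglia markers, at 0.84 and 0.18.

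Microglia markers had the widest gap between regions among the lists. Microglia are the resident immune cells of brain tissue and lie against vessels. The 24 measured markers had a median knockout effect of 0.84 in cerebral and 0.18 in cerebellar vessels, and a median interaction of -0.64 against 0.02 over all genes. All 24 interactions were below 0, and 21 had an unadjusted p under 0.05 with a negative sign, against 5.18% of all genes, while 0 were called in limma. In cerebral vessels 12 of the 24 were called higher in knockout mice (2.45% of all genes were), and in cerebellar vessels 0 were called (1.06% of all genes) and 1 had an unadjusted p under 0.05. The mean level over the 24 markers was 11.37 to 11.89 in control cerebral and 12.09 to 12.81 in knockout cerebral vessels, without overlap. In cerebellar vessels it was 10.98 to 11.31 and 11.18 to 11.40, which overlapped. Leaving out each mouse in turn gave medians of the interaction between -0.83 and -0.51, with all 24 below 0 and 16 to 23 at an unadjusted p under 0.05; without the mouse link, 10 had an unadjusted p under 0.05.

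The markers differed within the mice as follows. The median marker was lower in cerebellar than in cerebral vessels by 0.77, 0.32 and 0.55 in the 3 control mice, and by 1.44, 0.99 and 1.35 in the 3 knockout mice. All 6 mice thus had lower microglial transcripts in the cerebellar preparation, and the knockout differences lay beyond the control ones. Trem2, a lipid receptor of microglia, read 9.06, 8.21 and 9.11 in control cerebral and 10.18, 9.51 and 10.10 in knockout cerebral vessels, and 7.91, 7.88 and 8.53 against 8.15, 7.93 and 8.47 in cerebellar vessels. The cerebral groups did not overlap and the cerebellar ones did (interaction -1.06). Tmem119, a surface protein of resident microglia, read 11.77, 11.38 and 11.94 against 13.28, 12.39 and 12.89 in cerebral, and 10.74, 11.05 and 11.37 against 11.50, 11.30 and 11.48 in cerebellar vessels (interaction -0.79).

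The integrin Itgam had the largest interaction of the list, -1.27, with effects of 1.19 and -0.08, and the purinergic receptor P2ry12 had -0.77, with 0.85 and 0.08. The smallest belonged to the complement gene C1qb (-0.17), the receptor Csf1r (-0.21) and the protease Ctss (-0.21). A second probe set of the fractalkine receptor Cx3cr1, tested on its own among all probe sets, gave -1.31 (adjusted p = 0.042 in limma), while the one that stands for the gene gave -0.58. Havcr2 (-1.10), a microglial and T cell receptor, and Lpxn (-1.07) belong to no list and were picked after their values were seen, among genes changed more than 2-fold on the mouse mean.

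**Figure D5:**
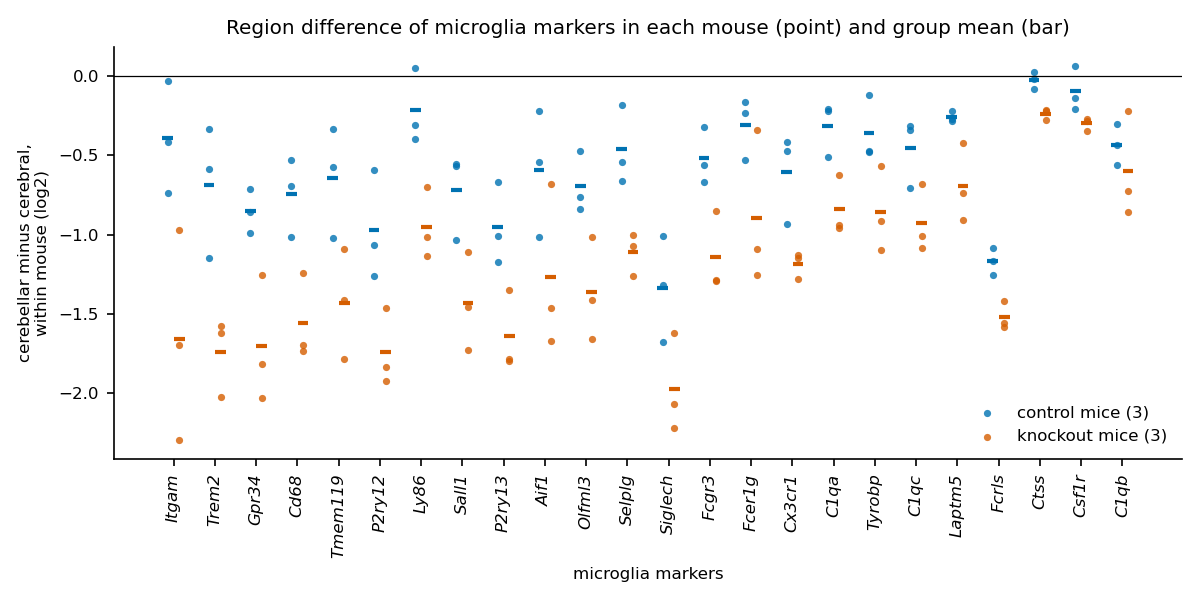
Cerebellar minus cerebral difference (log2) of 24 microglia markers within each control mouse (blue points) and knockout mouse (orange points), with group means as bars. The knockout mean lies below the control mean for all 24 markers, and most differences are below 0 in both genotypes.

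Other immune genes had interactions of either sign. Of 18 border macrophage and leukocyte genes, 11 had an interaction above 0, against 6590 of 11716 over all genes, and 6 a positive and 3 a negative one at an unadjusted p under 0.05, against 5.18% of all genes in each direction. Of this list, Ptprc, the pan-leukocyte phosphatase, gave -0.59 and Cd84 -1.26. The class II genes H2-Ab1 and Cd74 gave effects of -0.43 and -0.56 in cerebral vessels against -0.06 and -0.03 in cerebellar vessels, with interactions of 0.37 and 0.53, opposite in sign to H2-DMa. The macrophage genes F13a1 and Pf4 gave interactions of 0.55 and 0.70. Pf4, which platelets also hold, read 9.71 in the cerebellar vessels of knockout mouse 1 and 7.90 to 8.66 elsewhere, and in that sample the platelet gene Itga2b read 5.58 against 4.54 to 4.67 in the rest; the part of platelets in the value of Pf4 was not tested. For inflammatory chemokines and cytokines the medians were -0.19 and 0.02 over 22 genes, 4 of which had a positive and 0 a negative interaction at an unadjusted p under 0.05, where 5.18% of all genes did in each direction.

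The neuron lists differed in sign. Over all genes, 6590 of 11716 interactions were above 0, and 5.18% were positive and 5.18% negative at an unadjusted p under 0.05. Neuron markers shared by the regions had 9 of 15 interactions above 0, with 3 positive and 0 negative at that threshold, and forebrain neuron and patterning genes 4 of 11, with 0 positive and 2 negative. Cerebellar neuron and patterning genes had 13 of 15 above 0, with 5 positive and 1 negative. Besides Gabra6 and Pvalb the 5 were Calb1 (1.6) and Pcp2 (0.77), both of Purkinje cells, and Car8 (0.43). Pcp2 read 3.74, 3.37 and 4.47 in knockout cerebellar vessels and at most 3.27 elsewhere. Pcp2, and Pvalb likewise, passed the filter only through the knockout cerebellar arrays, so they had to differ and lend the count no support. In knockout cerebellar vessels Calb1 read 4.83, 4.57 and 5.79, against 3.63, 3.92 and 3.27 in control cerebellar vessels. Of the 34 genes listed, 15 passed the filter on low values, and 15 more were on the array and did not. The mean level of the 15 tested genes was 6.34 to 6.67 in control and 6.61 to 6.82 in knockout cerebellar vessels. Their median within-mouse difference (cerebellar minus cerebral) was 0.44, 0.21 and -0.08 in control and 0.25, 0.38 and 0.41 in knockout mice, which overlapped. Astrocyte markers had medians of 0.13 in cerebral and 0.47 in cerebellar vessels, 18 of 19 interactions above 0 and 2 positive at an unadjusted p under 0.05, to be read against the same shares of all genes. Their mean level was 9.77 to 10.23 and 9.76 to 10.51 in control and knockout cerebral vessels and 10.15 to 10.41 and 10.57 to 10.87 in cerebellar vessels, without overlap in the latter. The median within-mouse difference (cerebellar minus cerebral) of the astrocyte markers was 0.52, 0.07 and -0.03 in control mice. In knockout mice it was 0.82, 0.61 and 0.32, so the genotypes overlapped on this measure. Slc4a4, a bicarbonate transporter of astrocytes, gave an interaction of 0.83, and the water channel Aqp4 0.66. The part of neural and microglial content in the other interactions was not tested.

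No endothelial marker and no blood-brain barrier transporter or Wnt gene had a called interaction. All 29 endothelial markers and all 34 barrier and Wnt genes had a 95% interval within 1 log2 unit of 0, as did 94.3% of all genes. The medians of the knockout effect were 0.06 and 0.12, and 0.01 and 0.05, in cerebral and cerebellar vessels. Interactions were above 0 for 20 of 29 and 24 of 34, against 6590 of 11716 over all genes. At an unadjusted p under 0.05 in limma, 1 endothelial marker was positive and 0 negative. For barrier and Wnt genes 4 were positive and 1 negative, against 5.18% of all genes in each direction. Cldn5 had an interaction of 0.00 (95% interval -0.20 to 0.20). All 25 basement membrane genes and all 30 genes of the mitochondrial respiratory chain also had an interval within 1 log2 unit of 0. Of their interactions, 20 of 25 and 19 of 30 were above 0.

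Genes that mark a region were chosen on the mean of both genotypes. In limma, 1361 genes were higher in cerebellar vessels (11.6%) and 1134 higher in cerebral vessels (9.68%), 2495 in all and 1638 without knockout mouse 3. Over all genes, 43.8% of interactions were negative, and 5.18% of genes had an unadjusted p under 0.05 in each direction. Of the genes higher in cerebral vessels, 779 (68.7%) had a negative interaction. At an unadjusted p under 0.05 in limma, 352 of these genes were negative and 54 positive. Their region difference had a median of -0.25 in control and -0.34 in knockout mice. Of the genes higher in cerebellar vessels, 851 had a positive interaction, 178 of them at an unadjusted p under 0.05, against 46 in the negative direction, and the median region difference was 0.41 in control and 0.47 in knockout mice. In both classes the median region difference was thus larger in knockout mice. All 24 microglia markers belong to the class higher in cerebral vessels.

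Among the genes with the largest region difference, the neuronal genes Ddn (-0.60), Hpcal4 (-0.33), Nrsn1 (-0.38) and Kif5a (-0.43) were higher in cerebral vessels and had interactions with intervals across 0. The chemokine Cxcl2 read 7.07 to 7.27 in control cerebellar and 6.76 to 7.6 in knockout cerebellar vessels, and at most 3.75 in cerebral vessels of either genotype (interaction 0.34, 95% interval -0.52 to 1.19). Mrap2 (0.05), Fabp3 (0.07) and Gria4 (0.24) were similar. Liph, a phospholipase, read 7.65, 5.64 and 6.37 in knockout cerebral vessels, 3.81, 3.26 and 3.68 in knockout cerebellar vessels and 2.62 to 4.78 in control vessels. It had the largest interaction of this set, -2.35 (95% interval -3.69 to -1.0), and was not called. The immediate early gene Fosb read 6.96, 5.57 and 6.94 in control and 4.63, 5.11 and 5.03 in knockout cerebellar vessels, and at most 3.27 in cerebral vessels (interaction -1.36, not called). All its cerebral values lay at background, so the interaction cannot show whether Fosb also fell there. Dlk1 (1.71), Frrs1l (1.05), Nfkbid (0.89), Chst2 (1.21), Upk1b (-1.26) and Ptger3 (-0.98) completed the set, and for Dlk1 control mouse 3 read 5.73 in cerebral vessels against 3.23 and 3.24 in the other controls.

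Counting calls in each region gave a different picture from testing the difference. In limma, the knockout comparison within cerebral vessels called 287 genes higher (2.45%) and 461 lower (3.93%), and that within cerebellar vessels 124 higher (1.06%) and 371 lower (3.17%). The cerebral split moved with the scaling and the mice: it was 374 higher and 406 lower with quantile normalization, and 432 higher and 431 lower without knockout mouse 2. The cerebral count of 748 was 1127 with the replicate block, 438 and 426 without control mouse 1 or 2 and 385 and 331 without knockout mouse 1 or 3. The cerebellar count of 495 was 312 and 301 without control mouse 1 or 2, and 253 without knockout mouse 3. Of the 404 genes called in cerebral vessels and not in cerebellar ones, 0 had a called interaction in limma. Of the same 404, 225 had an unadjusted p under 0.05, against 10.4% of all genes. For 285 the interval lay within 1 log2 unit of 0, against 94.3% of all genes. Of the 151 called in cerebellar vessels and not in cerebral ones, 3 had a called interaction (Dpt, Ebf2 and Slc16a7), and of the 344 called in both, 1 did (Glrp1). Dpt and Ebf2 passed the filter only through the control cerebellar arrays, so they had to differ and lend the count no support. The same 6 mice gave both regions, and a gene chosen for its value in 1 region leans toward a larger difference there.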

How the data were processed

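The deposited values were log2 expression per probe set from 12 Affymetrix mouse arrays, which the authors made with GCRMA 2.32.0, per the submitters' processing notes; about 100 ng of RNA was amplified per the labels' protocols. The genome build was not stated. The values were not rescaled. Of 45101 probe sets, 34958 named 1 gene, 932 several and 9211 none (64 controls left out). The filter required at least 3 arrays over the median of all values, 3.27, and the one with the highest mean stood for its gene. limma 3.58.1 on R 4.3.3 (lmFit, eBayes, two-sided, Benjamini-Hochberg, threshold 0.05) tested 6 within-mouse differences for the interaction and 6 mouse means for the mean effect (4 residual degrees of freedom each), and 4 group means for each region. Code was tested on simulated data.

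The arrays of a mouse deviated together (r from 0.371 to 0.705 over genes), and Xist status matched in both regions of every mouse. The mice of a genotype differed in it: Xist was detected in control mice 1 and 2 and knockout mice 1 and 3. It was not detected in control mouse 3 and knockout mouse 2. Across genotypes, same-numbered within-mouse differences correlated at 0.112, 0.125 and 0.150, against -0.124 to 0.012 for other numbers. Same-numbered arrays of a region correlated at -0.166 to 0.259, inside the range of -0.347 to 0.266 for other numbers. Whether replicate numbers pair mice across genotypes is thus not settled, and the blocked fit is given where it changes a call. Replicates are separate mice per the design text.

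The members, the 29 gene lists (756 entries) and the tests were chosen with earlier results of these data known. Named were Notch3; called interactions with separate groups; the 12 smallest p in each direction; the 12 most raised and 12 most lowered genes on the mouse mean; the 8 and 8 with the largest region difference; and, per list, up to 4 members by knockout effect and 2 by interaction. Clone names were left out, and other list members were named after their values were seen. Alternatives covered the filter, background, probe sets, scaling, variance model, array weights, mouse link, replicate block, Xist and each mouse left out.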

Additional observations from a re-analysis of the deposited data

Results flagged for a closer look

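The knockout effect differed between regions by limma's test for 4 genes, with interactions (cerebellar minus cerebral) of -1.23 for Dpt, -1.32 for Ebf2, -1.81 for Glrp1 and -1.03 for Slc16a7. Dpt and Ebf2 were over the background level of 3.27 in control cerebellar vessels only, so they had to differ between groups and their calls carry no support. Glrp1 was higher in knockout vessels of both regions and Slc16a7 lower in knockout cerebellar vessels.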

How the results depend on the processing

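The 4 called interactions became 1 without a filter, 0 with the filter at the 75th percentile (which none of the 4 passed), 0 with a variance trend and robust eBayes, 7 with the mouse as a random block, 1 with Xist as a covariate, and 0 to 3 with a mouse left out. The other alternatives gave 3 to 5, except the replicate block below. Changed genes on the mouse mean (472) became 312 without a filter, 710 over every probe set, 1549 without the mouse link, 906 with the random block and 237 to 473 with a mouse left out. Cerebral calls (748) became 1415 with array weights, 310 from the 6 arrays of the region and 331 to 863 with a mouse left out, and cerebellar calls (495) 253 to 474. Region differences (2495) became 1449 without the mouse link and 1638 to 1996 with a mouse left out. Without the link, 4.66% of genes had an unadjusted interaction p under 0.05, and 10 microglia markers did so below 0. The 4 called genes kept their sign, but 16 of the 61 interactions of named genes changed sign with 1 or 2 of the mice left out in turn. Of 28 list medians of the interaction, 10 changed sign in at least 1 alternative, none of them larger than 0.16 in size as reported. The cerebral split of 287 higher and 461 lower was 374 and 406 with quantile normalization, and 432 and 431 without knockout mouse 2.

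With the replicate number as replicate block, 0 interactions were called and cerebral calls were 1127; it changed the call of no other count by over 1.5 times. The precision is limited by 3 mice a genotype, and values at or under 3.27 have no order.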

Other observations

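Immediate early and heat shock genes, which report recent cell activation or handling, had median knockout effects of -0.24 in cerebral and -0.27 in cerebellar vessels over 30 genes, against -0.01 and 0.01 over all genes. Of these, 4 had a positive and 2 a negative interaction at an unadjusted p under 0.05, against 5.18% of all genes in each direction, and none was called in limma. Nr4a1, a nuclear receptor, gave effects of -1.42 and -0.68, and the heat shock gene Hspa1b -0.99 and -0.53. The choroid plexus and ependymal markers were higher in the cerebellar preparation of both genotypes (14 of 17 called, against 11.6% of all genes), with a median interaction of -0.16 and none called.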
